A study of Homo sapiens with 20 samples.

Results

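The genes described here encode the sarcomere, the repeating contractile unit of striated muscle, and the proteins that assemble it, turn it over or control its calcium. The list holds 50 genes, each represented by the probe set of its symbol with the highest mean over all arrays. Of these, 48 were measured among the 17687 genes of the arrays. TPM3 and TNNT2 were not analysed here. The study measured total RNA on Affymetrix Clariom S arrays in Rh30 and Rh41, 2 established lines of alveolar rhabdomyosarcoma, a tumour of cells resembling immature skeletal muscle. Both lines carry the PAX3-FOXO1 fusion gene. The question was how gene expression responds when histone demethylases of the KDM4 family, enzymes that take methyl marks off histone H3, are knocked down or inhibited.

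By title, the 20 arrays form 8 groups. Rh30 transduced with a control short hairpin RNA and Rh30 transduced with a hairpin against KDM4B were collected at 72 h (2 arrays each). Rh30 with a control siRNA and Rh30 with an siRNA against KDM4C were also collected at 72 h (2 arrays each). The second KDM4C array is titled shRNA_KDM4C. It is counted among the arrays titled siRNA because its source name reads siKDM4C. Rh30 and Rh41 were each given the vehicle DMSO or the KDM4 inhibitor QC6352 at 200 nM for 48 h (3 arrays in each of these 4 groups). The labels call the arrays biological replicates without naming separate cultures, so p values measure the spread between arrays, which may be technical. Values are log2 signals as deposited, each gene is compared only with itself, and the number of arrays limits the precision.

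In a sarcomere, thin filaments of actin, tropomyosin and troponin slide along thick filaments of myosin heavy and light chains, between Z-discs and along the giant proteins titin and nebulin. Muscle precursors first use embryonic isoforms such as cardiac alpha-actin and the atrial light chain, and later replace them with fast or slow isoforms. Rhabdomyosarcoma cells express the myogenic factors MYOD1 and MYOG, yet assemble few sarcomeres.

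For 10 of the Rh30 arrays the labels do not agree among themselves. The submitters' sample name in the description places the arrays titled siRNA, DMSO and QC6352 of Rh30 in other groups than the title does. By sample name, the 3 arrays titled QC6352 are 1 control siRNA array and 2 KDM4C siRNA arrays. The 4 hairpin arrays and the 6 Rh41 arrays have agreeing labels. Groups here follow the titles, and values by sample name are given where a result rests on the 10 arrays. KDM4B was 6.01 and 6.15 log2 with its hairpin against 6.74 and 7.30 in the controls, a fall of 0.94 ± 0.23 (SE; limma, adjusted p = 0.0120). KDM4C was 6.48 and 6.54 log2 with the control siRNA and 6.25 and 6.32 in the siKDM4C group. The difference of -0.23 (limma, adjusted p = 0.651) did not pass the threshold. Array medians were 6.72 to 6.75 log2 in the 4 arrays titled siRNA, 6.95 to 6.99 in the other 10 Rh30 arrays and 7.22 to 7.25 in the 6 Rh41 arrays. Background, taken as the median of 23 control probe sets, was 3.64 to 4.01 log2. Markers of rhabdomyosarcoma averaged 9.26 to 10.15 log2 over 10 genes, the member DES among them, in all 20 arrays.

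The members were also compared by the sequence before their start sites. The 250 bases before the start site were in the RefSeq table (build GRCh38.p14) for 31 of the 48 members. They were searched for the E-box CANNTG, which myogenic bHLH factors such as MYOD1 and MYOG bind, for its form CAGCTG, for the CArG box of serum response factor and for the MEF2 motif, all on both strands. An E-box was present in 25 of 31 members (80.6%) and in 57.6% of all 14250 promoters. CAGCTG, a subset of these, was present in 14 members (45.2%) and in 13.3% of all promoters. The MEF2 motif was found in 9 members (29.0%) and in 2.1% of all promoters, and the CArG box in 4 members (12.9%; ACTA1, ACTC1, LDB3 and MYOM1) and in 1.2%. A match describes the letters in this window and is not evidence of binding. The promoters printed here belong to 5 members whose levels moved most or in opposite ways in the comparisons that follow. MYL1 lies at chr2:210315175-210315424, XIRP1 at chr3:39192596-39192845 and ACTC1 at chr15:34795550-34795799, all on the minus strand. MYL11 lies at chr16:30370684-30370933 and KLHL41 at chr2:169509452-169509701, on the plus strand. Each is written 5′ to 3′ up to the base before the start site, with E-boxes in capitals.
MYL1: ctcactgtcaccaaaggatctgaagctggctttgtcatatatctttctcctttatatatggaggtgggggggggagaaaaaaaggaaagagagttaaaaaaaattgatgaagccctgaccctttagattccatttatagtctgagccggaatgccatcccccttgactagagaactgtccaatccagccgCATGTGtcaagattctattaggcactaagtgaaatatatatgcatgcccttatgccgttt
XIRP1: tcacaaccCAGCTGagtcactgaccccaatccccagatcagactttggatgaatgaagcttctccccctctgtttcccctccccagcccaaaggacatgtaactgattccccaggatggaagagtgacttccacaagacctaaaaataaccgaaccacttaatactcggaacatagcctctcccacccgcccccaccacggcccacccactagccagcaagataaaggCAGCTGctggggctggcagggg
ACTC1: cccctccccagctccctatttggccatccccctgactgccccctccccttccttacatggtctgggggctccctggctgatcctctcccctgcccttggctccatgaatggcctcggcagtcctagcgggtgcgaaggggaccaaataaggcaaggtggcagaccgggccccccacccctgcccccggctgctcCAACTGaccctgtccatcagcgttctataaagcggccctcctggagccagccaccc
MYL11: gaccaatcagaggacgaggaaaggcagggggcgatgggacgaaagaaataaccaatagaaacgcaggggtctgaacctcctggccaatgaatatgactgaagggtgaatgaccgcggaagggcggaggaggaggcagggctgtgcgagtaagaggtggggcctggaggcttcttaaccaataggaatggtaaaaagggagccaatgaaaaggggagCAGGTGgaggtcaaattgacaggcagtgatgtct
KLHL41: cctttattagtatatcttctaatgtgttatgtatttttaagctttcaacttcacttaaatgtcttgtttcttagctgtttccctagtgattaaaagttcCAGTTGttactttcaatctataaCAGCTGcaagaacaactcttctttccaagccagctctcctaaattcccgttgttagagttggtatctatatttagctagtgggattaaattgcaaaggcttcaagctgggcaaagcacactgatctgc
XIRP1 and KLHL41 each held 2 E-boxes, at least 1 of them CAGCTG, and 1 MEF2 motif. Their RNA moved in opposite directions with QC6352 in Rh30. ACTC1 held 1 E-box, CAACTG, beside 1 CArG box, and MYL1 and MYL11 held 1 E-box each, CATGTG and CAGGTG. TPM1 held no E-box in its window.

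Of the 48 measured members, 17 passed the threshold (limma, adjusted p under 0.05 over all genes) in at least 1 of the 4 treatment comparisons, and 31 passed in none. The same count was not made over all genes, of which QC6352 in Rh30 alone called 36.3%. Many members were close to background. MYH1, MYH2, MYH3, MYL2, MYBPC1, MYOM2, MYOM3, ACTN3, CKM, KLHL40, LMOD3, UNC45B and TRDN, 13 in all, stayed less than 1.5 log2 above the background median in every group. These include the embryonic myosin heavy chain MYH3. They also include adult fast myosin heavy chains, muscle creatine kinase and triadin, which are abundant in differentiated fibres. Changes in such genes are hard to measure. MYH genes are near-identical paralogs, several in 1 cluster on chromosome 17, and whether their probe sets tell them apart was not tested.

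**Figure D1:**
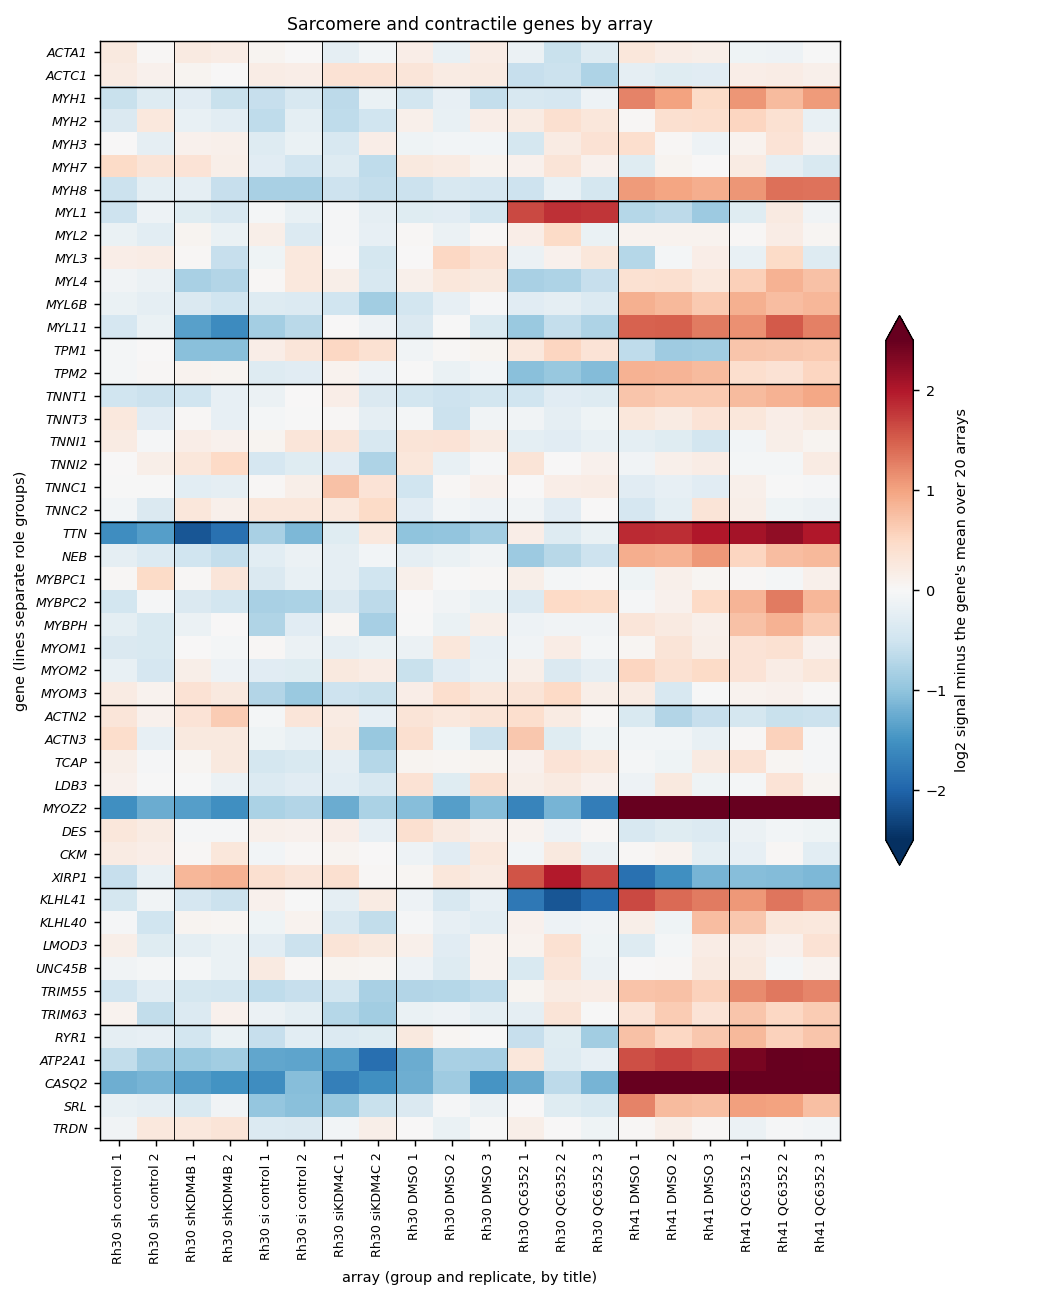
Signal of each measured member (one line per gene, grouped by role) on each of the 20 arrays, as the log2 difference from that gene's mean over all arrays; colour saturates at the ends of the scale. MYL1 and XIRP1 were high and KLHL41 low in the 3 Rh30 arrays titled QC6352, and MYOZ2, CASQ2, TTN and ATP2A1 were high in the 6 Rh41 arrays.

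QC6352 in Rh30 moved the sarcomere genes in both directions. MYL1, the fast essential light chain, rose 4.30-fold and XIRP1, an actin-binding protein of muscle attachment sites and remodelling sarcomeres, rose 2.96-fold. KLHL41, a kelch protein that stabilises nebulin and thin filaments, fell 3.26-fold, and ACTC1, cardiac alpha-actin, fell 1.84-fold. In all, 6 of 48 members rose and 9 fell (n = 3 and 3 arrays), which is 31.2% of the members against 36.3% of all genes called in this comparison. Over all genes 19.9% rose and 16.5% fell, so the members' share was close to that of the arrays as a whole. The median change was 0.07 log2 over the members and 0.05 over all genes. Each value in this comparison rests on arrays with conflicting labels, and by sample name limma called 0 members (5 at an unadjusted p under 0.05). Over all genes it called 89 by sample name and 6427 by title. The QC6352 group by sample name joins arrays with medians of 6.72, 6.97 and 6.99 log2. By title its medians are 6.95, 6.99 and 6.96. MYOG was 9.06, 9.34 and 9.03 log2 in the arrays titled QC6352 and 11.72, 11.76 and 11.82 in those titled DMSO. By sample name the control siRNA group joins arrays with MYOG at 11.82 and 9.06 log2. Beyond these values, which label is right was not tested.

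Both actins fell in Rh30. ACTC1 was 12.84, 12.74 and 12.77 log2 in DMSO and 11.97, 11.99 and 11.76 with QC6352. The QC6352 arrays lay below every other Rh30 array, which ran from 12.54 to 12.90, and the change was -0.88 ± 0.08 log2 (SE; adjusted p = 8.64e-08). ACTA1, the adult skeletal alpha-actin, was 9.23, 8.89 and 9.25 log2 in DMSO and 8.93, 8.51 and 8.74 with QC6352, a change of -0.40 ± 0.12 log2 (adjusted p = 0.0106). For ACTA1 the highest QC6352 array lay above the lowest DMSO array, so these groups overlapped. The call was lost in a fit of the 6 compared arrays alone (adjusted p = 0.0677) and without DMSO replicate 1, DMSO replicate 3 or QC6352 replicate 2.

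The myosin light chains split. MYL1 was 7.65, 7.68 and 7.50 log2 in DMSO and 9.61, 9.79 and 9.74 with QC6352. No other Rh30 array exceeded 7.93, and the change was 2.10 ± 0.13 log2 (SE; adjusted p = 3.04e-10). MYL4, the atrial and embryonic essential light chain, was 9.46, 9.62 and 9.58 log2 in DMSO and 8.52, 8.57 and 8.75 with QC6352. It fell by 0.94 log2 (adjusted p = 5.75e-06), with no overlap. MYL11, the fast regulatory light chain, was 7.62, 7.98 and 7.61 log2 in DMSO and 7.06, 7.39 and 7.22 with QC6352, and fell by 0.52 log2 (adjusted p = 0.00354). Thus 1 fast light chain rose and the other fell. Other Rh30 arrays lay in the QC6352 range of MYL4 (8.52 and 8.60 log2 with the KDM4B hairpin) and MYL11 (7.14 and 7.32 with the control siRNA). MYL2, MYL3 and MYL6B, slow or ventricular chains, lay between -0.22 and 0.18 log2 and did not pass. No myosin heavy chain of the 5 measured passed.

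The 2 measured tropomyosins, which lie along actin and gate its access to myosin, moved in opposite directions. TPM1 was 8.76, 8.87 and 8.90 log2 in DMSO and 9.11, 9.37 and 9.18 with QC6352, a rise of 0.37 ± 0.10 (SE; adjusted p = 0.00399). TPM2 was 10.38, 10.22 and 10.31 log2 in DMSO and 9.35, 9.45 and 9.30 with QC6352, and fell by 0.94 log2 (adjusted p = 8.46e-08). Neither pair of groups overlapped. Other Rh30 arrays reached 9.35 log2 for TPM1, inside its QC6352 range, and did not go below 10.07 for TPM2. Among 6 measured troponin genes, 1 passed. It was TNNI1, the slow inhibitory subunit, at 10.64, 10.65 and 10.53 log2 in DMSO and 10.07, 10.03 and 10.14 with QC6352, a fall by 0.53 log2 (adjusted p = 0.00466). The QC6352 arrays lay below all 3 DMSO arrays, but another Rh30 array was as low as 9.92.

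The 2 giant filament rulers also diverged. TTN, titin, which spans from Z-disc to M-line, was 7.36, 7.39 and 7.53 log2 in DMSO and 8.54, 8.06 and 8.21 with QC6352. It rose by 0.84 ± 0.15 log2 (SE; adjusted p = 0.000127). NEB, nebulin, which lines the thin filament, was 9.09, 9.15 and 9.24 log2 in DMSO and 8.40, 8.63 and 8.80 with QC6352, and fell by 0.55 log2 (adjusted p = 0.000553). Other Rh30 arrays overlapped both QC6352 ranges, TTN at 8.07 and 8.65 log2 with the KDM4C siRNA and NEB at 8.73 with the KDM4B hairpin. The myosin-binding proteins MYBPC1, MYBPC2 and MYBPH and the myomesins MYOM1, MYOM2 and MYOM3, which cross-link thick filaments, did not pass.

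At the Z-disc and in the cytoskeleton, XIRP1 alone of 8 measured members passed. XIRP1 was 7.20, 7.44 and 7.36 log2 in DMSO and 8.73, 9.14 and 8.83 with QC6352, a change of 1.56 ± 0.16 (SE; adjusted p = 1.83e-07). All 3 QC6352 arrays lay above every other Rh30 array, whose highest value was 8.03. DES, the muscle intermediate filament desmin, changed by -0.24 log2 (adjusted p = 0.0735) and MYOZ2, a calcineurin-binding Z-disc protein, by -0.34 (adjusted p = 0.0688). Neither passed, although both did with the lowest 40% of probe sets left out or with a trended, robust variance. ACTN2, TCAP and LDB3, structural Z-disc proteins, lay between -0.09 and 0.17 log2.

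Assembly and calcium genes completed the response. KLHL41 was 7.29, 7.03 and 7.23 log2 in DMSO and 5.63, 5.29 and 5.50 with QC6352, a change of -1.71 ± 0.13 (SE; adjusted p = 8.28e-09). The other Rh30 arrays did not go below 6.88. TRIM55, a titin-associated ubiquitin ligase, was 7.90, 7.91 and 8.0002 log2 in DMSO and 8.69, 8.83 and 8.82 with QC6352, and rose by 0.84 log2 (adjusted p = 1.53e-06). ATP2A1, the fast calcium pump that refills the sarcoplasmic reticulum, was 6.51, 6.94 and 6.92 log2 in DMSO and 8.04, 7.44 and 7.55 with QC6352, and rose by 0.89 log2 (adjusted p = 0.000153). RYR1, the calcium release channel, was 7.63, 7.45 and 7.38 log2 in DMSO and 6.82, 7.08 and 6.52 with QC6352, and fell by 0.68 log2 (adjusted p = 0.000379). In each of these 4 genes the groups did not overlap. They also did not overlap in members not called in this comparison, such as MYH2, TCAP and DES. Separation of groups was not counted over all genes. The pump and the release channel thus moved apart. MYOG fell by 2.63 log2 in the same comparison and MYOD1 by 1.37. The mean of 10 rhabdomyosarcoma markers was 9.26 to 9.41 log2 with QC6352 against 10.11 to 10.13 in DMSO. Of the 10, 6 fell and 1 rose, 70.0% of the list against 36.3% of all genes called. Of 5 smooth muscle markers, CNN1 and SMTN rose. Their mean was 7.22 to 7.51 log2 with QC6352 against 6.96 to 7.15 in DMSO. The part of these shifts in the members' changes was not tested, and fewer cells of a type cannot be told apart from less RNA per cell.

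**Figure D2:**
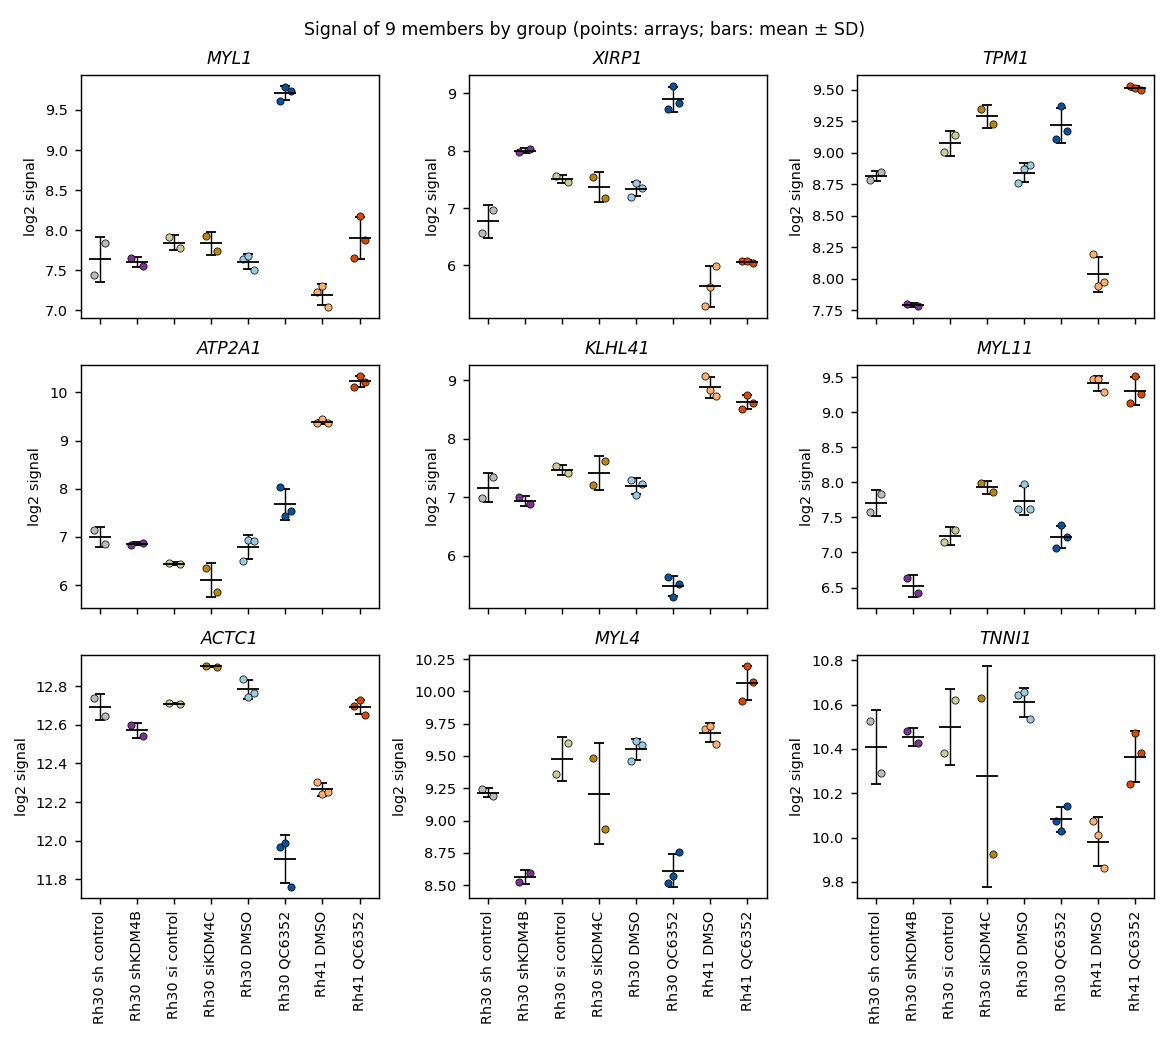
Log2 signal of 9 members by group; points are arrays and bars the mean ± SD of 2 or 3 arrays, with a separate scale per gene. MYL1 reached 9.61 to 9.79 in Rh30 with QC6352 and did not exceed 8.18 in any other group, and TPM1 lay at 7.78 to 7.80 with the KDM4B hairpin and 9.50 to 9.53 in Rh41 with QC6352.

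QC6352 in Rh41 produced mostly rises. TPM1 rose 2.78-fold, ATP2A1 1.79-fold and MYL1 1.63-fold, and TPM2 fell 1.31-fold. In all, 8 of 48 members rose and 1 fell (n = 3 and 3 arrays), 18.8% of the members against 19.7% of all genes. Over all genes 10.9% rose and 8.80% fell. The median change was 0.11 log2 over the members and 0.02 over all genes. All 6 arrays have agreeing labels. Fitted alone, or with the hairpin arrays alone, they gave 14 called members. These were the same 9 and ACTA1, DES, TNNI1, TNNC1 and CASQ2.

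ACTC1 was 12.31, 12.24 and 12.25 log2 in Rh41 with DMSO and 12.70, 12.73 and 12.65 with QC6352, a rise of 0.43 ± 0.08 (SE; adjusted p = 0.00101). The groups were well apart. ACTA1 went from 9.35, 9.25 and 9.21 log2 to 8.96, 8.94 and 9.06, a difference of -0.29 (adjusted p = 0.0995) that did not pass although the groups did not overlap.

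Among light chains, MYL1 was 7.23, 7.31 and 7.05 log2 in DMSO and 7.65, 8.18 and 7.87 with QC6352, a rise of 0.70 ± 0.13 (SE; adjusted p = 0.000654). MYL4 was 9.71, 9.73 and 9.60 log2 in DMSO and 9.93, 10.19 and 10.07 with QC6352, a rise of 0.38 (adjusted p = 0.0344). The arrays of both genes separated by group. The MYL4 call was lost without any of 5 arrays in turn (all except QC6352 replicate 1). MYL11 differed by -0.11 log2 (adjusted p = 0.658), with overlapping groups.

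TPM1 moved most. It was 8.20, 7.94 and 7.98 log2 in DMSO and 9.53, 9.51 and 9.50 with QC6352, a change of 1.47 ± 0.10 (SE; adjusted p = 3.76e-09). TPM2 went from 11.26, 11.24 and 11.17 log2 to 10.81, 10.76 and 10.93, a fall by 0.39 (adjusted p = 0.00357). The opposite movement of the 2 tropomyosins was thus present in both lines. TNNI1 was 10.07, 10.01 and 9.86 log2 in DMSO and 10.24, 10.47 and 10.38 with QC6352, a difference of 0.38 (adjusted p = 0.0588).

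Of the myosin-binding proteins, MYBPC2, the fast isoform, was 5.76, 5.89 and 6.27 log2 in DMSO and 6.63, 7.09 and 6.60 with QC6352, a rise of 0.80 (adjusted p = 0.00634). MYBPH, a related protein of the thick filament, was 6.92, 6.83 and 6.74 log2 in DMSO and 7.35, 7.47 and 7.25 with QC6352, a rise of 0.53 (adjusted p = 0.0294). Both groups separated, but the MYBPH call was lost without any of 4 arrays in turn (DMSO replicates 2 and 3, QC6352 replicates 1 and 2). TTN differed by 0.19 log2 (adjusted p = 0.436) and NEB by -0.25 (adjusted p = 0.135).

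TRIM55 was 9.34, 9.35 and 9.21 log2 in DMSO and 9.80, 9.95 and 9.85 with QC6352, a rise of 0.57 (adjusted p = 0.000396). ATP2A1 was 9.36, 9.44 and 9.36 log2 in DMSO and 10.12, 10.35 and 10.22 with QC6352, a rise of 0.84 (adjusted p = 0.000699). Every treated array lay above every control array in both genes. The groups also separated in members not called in Rh41, such as ACTN3, TRDN and MYOM2, and separation was not counted over all genes. XIRP1 was 5.29, 5.62 and 5.99 log2 in DMSO and 6.08, 6.08 and 6.04 with QC6352, a difference of 0.43 (adjusted p = 0.0599) that did not pass. It passed with the lowest 40% of probe sets left out, with a trended variance, with the replicate block and without DMSO replicate 3. KLHL41 differed by -0.26 (adjusted p = 0.219) and RYR1 by 0.05 (adjusted p = 0.864), with overlapping groups. MYOG differed by 0.28 log2 (adjusted p = 0.0530) and MYOD1 by -0.21 (adjusted p = 0.285). The mean of the rhabdomyosarcoma markers was 9.64 to 9.75 log2 with QC6352 and 9.66 to 9.75 in DMSO, within 1 range. CNN1 and TAGLN, 2 of 5 smooth muscle markers, rose, and their list mean was 7.82 to 7.87 log2 against 7.45 to 7.53. The part of this in the members' changes was not tested.

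**Figure D3:**
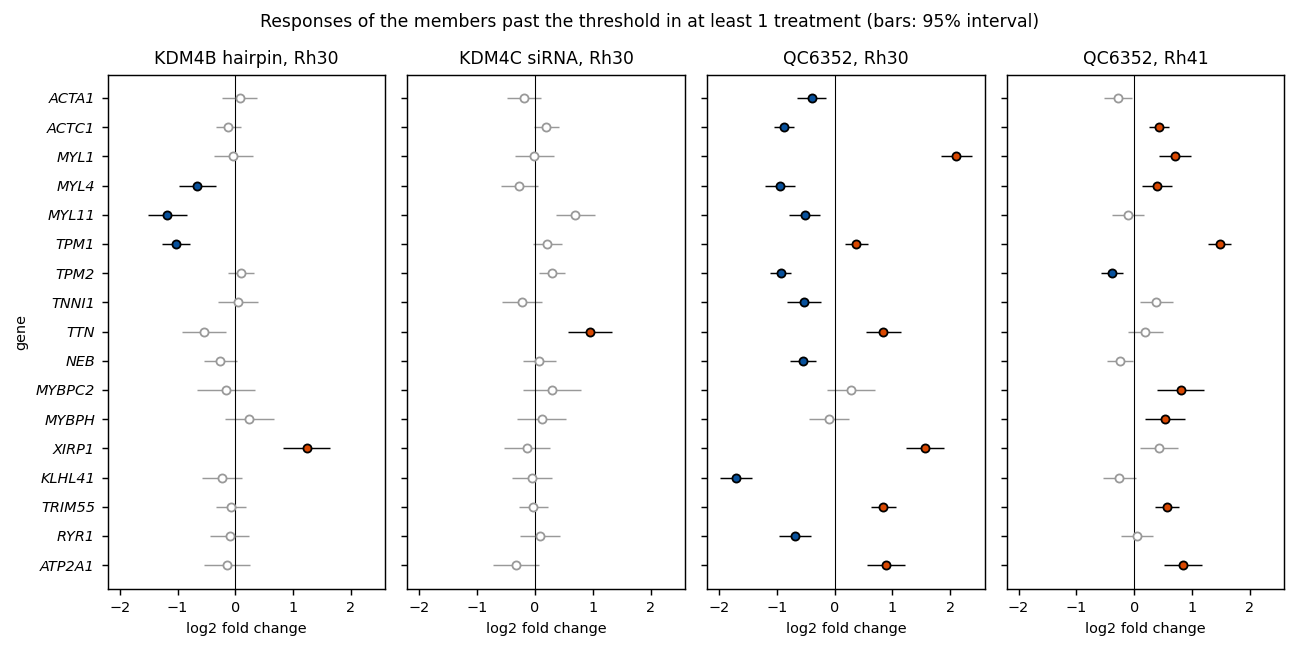
Log2 fold change with its 95% interval for the 17 members past the threshold in at least 1 treatment comparison; filled points passed in that panel (orange higher, blue lower) and open points did not. ACTC1 and MYL4 fell in Rh30 and rose in Rh41 with QC6352, and TPM1 fell with the KDM4B hairpin and rose with QC6352 in both lines.

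The 2 drug comparisons use separate arrays. Of the members that rose, MYL1, TPM1, TRIM55 and ATP2A1 did so in both lines, which is 4 of 6 in Rh30 and 4 of 8 in Rh41. TPM2 fell in both, 1 of 9 in Rh30 and 1 of 1 in Rh41. ACTC1 and MYL4 fell in Rh30 and rose in Rh41. Calls shared by the lines were not counted over all genes, so these overlaps do not set the members apart.

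The difference between the lines in the response was tested directly, as the response in Rh41 minus that in Rh30. It passed in 11 of 48 members (22.9%, against 20% of all genes, 10.5% higher and 9.45% lower), higher in Rh41 for 8 and lower for 3. KLHL41 had the highest difference, 1.45 ± 0.19 log2 (SE; adjusted p = 2.41e-05), with a fall in Rh30 and no call in Rh41. MYL4 (1.33, adjusted p = 2.66e-05) and ACTC1 (1.30, adjusted p = 2.88e-07) changed sign between the lines. TPM1 (1.10, adjusted p = 1.16e-05) rose in both and more in Rh41, and TPM2 (0.55, adjusted p = 0.00377) fell in both and less in Rh41. TNNI1 (0.91), RYR1 (0.73) and DES (0.48) were also higher. MYL1 (-1.40, adjusted p = 2.38e-05) rose in both and more in Rh30. XIRP1 (-1.13, adjusted p = 0.00112) and TTN (-0.65, adjusted p = 0.0328) rose in Rh30 and were not called in Rh41. ATP2A1 (-0.04, 95% interval -0.49 to 0.42) and TRIM55 (-0.27, adjusted p = 0.202) gave no detected difference. The TTN call was lost without any of 6 arrays in turn (Rh30 DMSO replicates 1 and 2, Rh30 QC6352 replicate 1, Rh41 DMSO replicate 3, Rh41 QC6352 replicates 1 and 3) and the DES call without any of 5 (Rh30 DMSO replicate 1, Rh30 QC6352 replicate 2, Rh41 DMSO replicate 1, Rh41 QC6352 replicates 2 and 3). By sample name 3 members passed, of which TPM1 alone was among the 11.

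**Figure D4:**
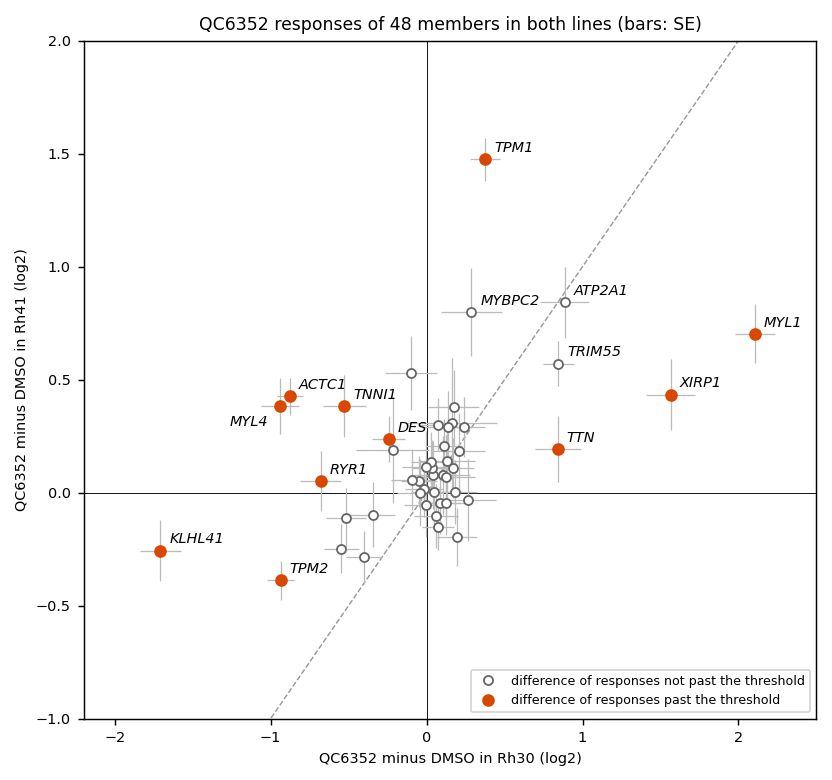
Response to QC6352 in Rh30 (horizontal) and Rh41 (vertical), log2, for 48 members with SE bars; the dashed line marks equal responses and filled points are the 11 members whose difference between lines passed the threshold. KLHL41, MYL4 and ACTC1 lie left of the line and MYL1 and XIRP1 right of it.

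The KDM4B hairpin, on arrays with agreeing labels, lowered 3 members and raised 1. MYL11 fell 2.26-fold, TPM1 2.03-fold and MYL4 1.58-fold, while XIRP1 rose 2.35-fold (n = 2 and 2 arrays). These 4 are 8.33% of the members, against 11.6% of all genes called (5.26% higher and 6.31% lower). The median change was -0.04 log2 over the members and 0.03 over all genes. MYL11 was 7.58 and 7.83 log2 with the control hairpin and 6.64 and 6.42 with the KDM4B hairpin, a change of -1.18 ± 0.16 (SE; adjusted p = 6.35e-05). TPM1 was 8.79 and 8.85 against 7.80 and 7.78 log2, a change of -1.02 ± 0.12 (adjusted p = 1.10e-05). The knockdown arrays of TPM1 were the lowest of all 20 arrays.

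MYL4 was 9.24 and 9.19 log2 with the control hairpin and 8.52 and 8.60 with the KDM4B hairpin, a change of -0.66 ± 0.15 (SE; adjusted p = 0.00720). XIRP1 was 6.57 and 6.97 against 7.98 and 8.03 log2, a rise of 1.23 ± 0.19 (adjusted p = 0.000259). The arrays of all 4 genes separated by group. With 2 arrays in each group, so did those of members not called, such as TNNC1, MYOM3 and CASQ2. The MYL4 call was lost without control hairpin replicate 1 (adjusted p = 0.0560) or KDM4B hairpin replicate 1 (adjusted p = 0.0679). TTN was 6.83 and 7.005 against 6.23 and 6.52 log2 and did not pass (adjusted p = 0.0572), although it did with quantile normalization, with the lowest probe sets left out, with a trended variance and in a fit of the arrays with agreeing labels alone. MYL1, the member that rose most with QC6352 in Rh30, differed by -0.04 log2 (95% interval -0.37 to 0.30). MYOD1 fell by 0.71 log2 in this comparison and MYOG differed by -0.29 (adjusted p = 0.146). Of the 10 rhabdomyosarcoma markers 4 fell and 1 rose, and their mean was 9.83 log2 on both arrays with the KDM4B hairpin against 10.03 to 10.15 in the controls. Of the 5 smooth muscle markers CNN1 rose, and their mean was 7.12 to 7.42 log2 against 6.93 to 6.94. The part of these shifts in the members' changes was not tested.

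The drug and the hairpin use separate control arrays and different times. XIRP1 rose in both, 1 of 6 members that rose with QC6352 in Rh30 and 1 of 1 with the hairpin. MYL4 and MYL11 fell in both, 2 of 9 and 2 of 3. TPM1 was called in opposite directions. Calls shared by drug and hairpin were not counted over all genes. The difference of the 2 responses in Rh30, a comparison added after the data were seen, passed in 10 members (20.8%, against 24.5% of all genes, 13.0% higher and 11.4% lower). It was 2.14 ± 0.21 log2 for MYL1 (SE; adjusted p = 4.59e-07), 1.40 for TPM1 (adjusted p = 1.63e-06) and 1.39 for TTN (adjusted p = 0.000178), higher with the drug. ATP2A1 (1.03), TRIM55 (0.92) and MYL11 (0.66) were also higher with the drug. KLHL41 (-1.48), TPM2 (-1.03), ACTC1 (-0.76) and RYR1 (-0.58) were lower. These values rest on the Rh30 drug arrays with conflicting labels. By sample name 2 of the 10 stayed called (MYL11 and TPM1), 3 kept the direction and lost the call (TPM2, TTN and ATP2A1) and 5 reversed (MYL1, KLHL41, ACTC1, RYR1 and TRIM55). XIRP1 (0.33, adjusted p = 0.393) and MYL4 (-0.28, adjusted p = 0.353) showed no detected difference, with 95% intervals of -0.19 to 0.85 and -0.69 to 0.13. Time and agent cannot be told apart here, since the hairpin arrays were taken at 72 h and the drug arrays at 48 h.

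The comparison titled KDM4C siRNA called 1 member, TTN (2.08% of the members, against 0.458% of all genes, 0.266% higher; n = 2 and 2 arrays). TTN was 7.56 and 7.26 log2 with the control siRNA and 8.07 and 8.65 in the siKDM4C group. The array at 8.65 is titled shRNA_KDM4C and was placed in that group by its source name. All values of the second group were higher, by 0.95 ± 0.18 log2 (SE; adjusted p = 0.0204). The groups also separated in members not called, such as LMOD3 and TNNC1. The TTN call was lost in a fit of the 4 arrays alone (adjusted p = 0.733) and without control replicate 1 (0.0671), control replicate 2 (0.264) or siKDM4C replicate 2 (0.301), each an adjusted p. By sample name the TTN difference was 0.10 log2 (adjusted p = 0.936). MYL11 was 7.14 and 7.32 against 7.995 and 7.87 log2, a difference of 0.70 (adjusted p = 0.0566). TRIM63, a ubiquitin ligase of the sarcomere, had the lowest estimate, -0.60 (adjusted p = 0.171). Without siKDM4C replicate 1, 5 members passed, TTN with MYL4, MYL6B, TNNI1 and TRDN. The target KDM4C itself was not lower past the threshold in these arrays.

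Before any drug, the lines differed widely in these genes. In DMSO, Rh41 exceeded Rh30 17.2-fold in MYOZ2, 7.26-fold in TTN and 6.06-fold in ATP2A1, and at least 6.62-fold in CASQ2, the calcium-binding protein of the cardiac and slow reticulum. XIRP1 was 3.25-fold lower in Rh41. In all, 27 members differed (n = 3 and 3 arrays), 19 higher and 8 lower in Rh41, which is 56.2% of the members against 57.6% of all genes. Over all genes 40.7% were higher and 16.8% lower, and the median difference was 0.19 log2 in both the members and all genes. With arrays centred on their medians or quantile normalized, the median of all genes became -0.06 and -0.02 log2 and the members' split became 15 higher and 12 lower. TNNT3, KLHL40, TRIM63 and RYR1 were no longer called under either scaling, and no called member changed direction. By sample name, which takes other arrays for DMSO in Rh30, 30 members were called and the estimate for MYOM3 turned from -0.36 to 0.66 log2. Other marker lists differed between the lines as well. Of the 10 rhabdomyosarcoma markers 6 were lower and 2 higher in Rh41, with a mean of 9.66 to 9.75 log2 there against 10.11 to 10.13 in Rh30. Of 5 fibroblast markers 4 were higher, with a mean of 6.91 to 6.92 against 5.81 to 5.91 log2. Of 5 smooth muscle markers 2 were higher (mean 7.45 to 7.53 against 6.96 to 7.15 log2), of 4 cardiac markers 2 (6.42 to 6.66 against 6.15 to 6.33) and of 4 blood markers 3 (4.88 to 5.09 against 4.44 to 4.57). Of 6 epithelial markers 1 was higher and 1 lower, and of 4 endothelial markers 1 was lower. The part of these lists in the members' differences was not tested.

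MYOZ2 ranged from 6.36 to 7.35 log2 over all 14 Rh30 arrays and from 10.89 to 11.06 over the 6 Rh41 arrays, with a DMSO difference of 4.10 ± 0.14 (SE; adjusted p = 2.13e-14). CASQ2 ranged from 3.71 to 4.76 in Rh30 and from 8.12 to 8.74 in Rh41 (adjusted p = 2.53e-13 in DMSO). Its mean in Rh30 with DMSO, 4.22 log2, was 0.26 above the background median, so the difference stands as a lower bound of 2.73 log2, measured from a floor set 1.5 log2 above that median. Neither gene passed in a treatment comparison. CASQ2 with QC6352 in Rh41 (0.38) passed with the 6 arrays fitted alone, with the agreeing-label arrays alone and with the replicate block. MYOZ2 in Rh30 passed with the lowest 40% of probe sets left out, with a trended variance, without DMSO replicate 2 (-0.45) and without QC6352 replicate 2 (-0.52). TTN was 7.36 to 7.53 log2 in Rh30 with DMSO and 10.23 to 10.38 in Rh41 with DMSO (2.86 ± 0.15, adjusted p = 5.82e-12). ATP2A1 was 6.51 to 6.94 and 9.36 to 9.44 log2 (2.60, adjusted p = 6.67e-11). KLHL41 (1.70), MYL11 (1.67), TRIM55 (1.36), TNNT1, the slow tropomyosin-binding troponin (1.15), NEB (1.11), MYL6B (1.02) and TPM2 (0.92) were higher in Rh41 as well. In 9 of the 27 called members, CASQ2 among them, the line with the lower signal lay less than 1.5 log2 above the background median, so their sizes are not well measured. The myosin heavy chains MYH8, the perinatal form, and MYH1, an adult fast form, were called higher in Rh41, where their DMSO means were 5.29 and 5.19 log2. Both stood at 3.86 log2 in Rh30, 0.10 below the background median, and both lines lay under the floor, so no size is given. MYOM2 and KLHL40 were called higher and MYOM3 lower with both lines under it too. SRL, sarcalumenin, TRIM63 and TNNT3 were called higher in Rh41 from a level near background in Rh30.

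The 8 members lower in Rh41 than in Rh30 were XIRP1 (-1.70 ± 0.16 log2, adjusted p = 2.58e-08), ACTN2 (-0.87), TPM1 (-0.81), TNNI1 (-0.63), DES (-0.59), ACTC1 (-0.52), MYL1 (-0.41) and MYOM3. ACTN2, the alpha-actinin that anchors thin filaments at the Z-disc, was 7.98, 7.91 and 7.98 log2 in Rh30 and 7.27, 6.91 and 7.07 in Rh41. Desmin was 11.91, 11.73 and 11.64 log2 in Rh30 and 11.12, 11.22 and 11.17 in Rh41. The lines did not overlap in either gene, but did in MYOM3. They also separated in members not called, such as MYH7, MYL2 and TRDN. The MYOM3 call was lost without Rh30 DMSO replicate 2 or 3 or Rh41 DMSO replicate 2, and the MYL1 call without Rh41 DMSO replicate 3 (adjusted p = 0.0599). TPM1 and MYL1 were lower in untreated Rh41 and rose with QC6352 in both lines. The baseline and the drug comparisons share their DMSO arrays, so their values stand side by side and are not independent.

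**Figure D5:**
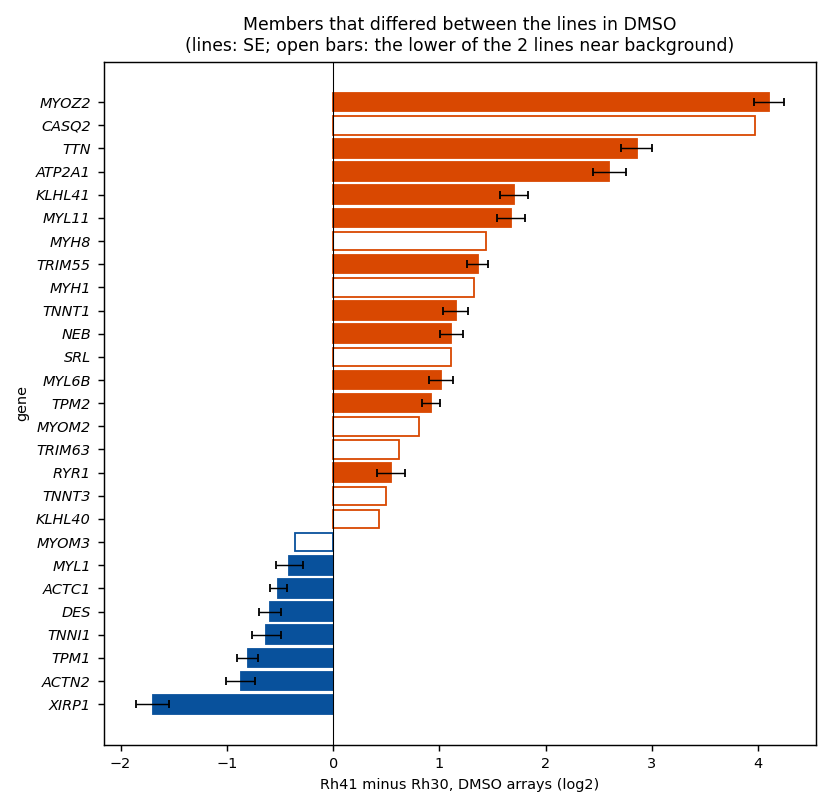
Difference between Rh41 and Rh30 in DMSO (log2, bars with SE) for the 27 members past the threshold, orange where higher and blue where lower in Rh41; open bars without SE are the 9 members whose lower line lay near background. MYOZ2 differed by 4.10 and XIRP1 by -1.70, and the open bar of CASQ2 stands for a difference of at least 2.73.

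By isoform class, the counts are read beside the share of all genes called, 36.3% in Rh30 and 19.7% in Rh41 with QC6352 and 11.6% with the hairpin. Of 10 measured fast isoforms, MYL1 and ATP2A1 rose and MYL11 fell with QC6352 in Rh30 (median 0.14 log2 over the 10), and MYL1, MYBPC2 and ATP2A1 rose in Rh41 (median 0.08). With so few genes, 3 of 10 is not set apart from either share. Of 10 measured slow isoforms, TNNI1 fell in Rh30 and none passed in Rh41. The embryonic or neonatal genes ACTC1 and MYL4 fell in Rh30 and rose in Rh41, and the other 2 of these 4, MYH3 and MYH8, did not pass in either line. With the KDM4B hairpin, 1 of 4 embryonic (MYL4), none of 10 slow and 1 of 10 fast isoforms (MYL11) passed, each lower.

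The remaining 17 members passed in no comparison at all, a count not made over all genes. Among them were the heavy chains MYH2, MYH3 and MYH7, the troponins TNNI2, TNNC1 and TNNC2, the Z-disc proteins TCAP, LDB3 and ACTN3, and the chaperone UNC45B, which folds myosin. In QC6352 against DMSO the 33 members not called in Rh30 ran from -0.34 (MYOZ2) to 0.29 log2 (MYBPC2), and the 39 not called in Rh41 from -0.29 (ACTA1) to 0.43 (XIRP1). With the KDM4B hairpin the 44 not called ran from -0.54 (TTN) to 0.43 (TNNC2).

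Counts in further lists of muscle genes stand against the same shares of all genes, 36.3% in Rh30, 19.7% in Rh41 and 11.6% with the hairpin. Of 27 measured further sarcomere and Z-disc genes, 4 rose and 4 fell with QC6352 in Rh30, and 4 rose and none fell in Rh41, or 29.6% and 14.8% of the list, under both shares. MYPN, myopalladin, which links nebulin and alpha-actinin at the Z-disc, rose by 2.42 log2 in Rh30 and by 0.99 in Rh41. Its mean in Rh41 with DMSO, 5.30 log2, lay under the floor of 5.45, so the size of that rise is not well measured. ANKRD1, a titin-binding stretch-response protein, fell by 0.72 in Rh30 and rose by 3.06 in Rh41. Of 15 measured further calcium-coupling genes, 2 rose and 1 fell in Rh30, and 5 rose and 2 fell in Rh41, among them JPH2, a junctional membrane protein, which rose by 0.90 in Rh41. Of 12 measured dystrophin complex and costamere genes, 2 rose and 6 fell in Rh30 (66.7%), and 1 rose and 2 fell in Rh41 (25.0%). SSPN (-2.39) and SNTB1 (-2.11) fell in Rh30. The counts of the coupling and dystrophin lists lay above the share of all genes, except the coupling genes in Rh30. The lists are small, and none was tested against these shares. With the KDM4B hairpin, 3 of 27 further sarcomere genes rose and 1 fell (14.8%), and none of 15 coupling genes passed. Of the 12 dystrophin complex and costamere genes, 1 rose (8.33%).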

How the data were processed

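Total RNA (125 ng input) was hybridised to 20 arrays. The authors deposited 1 log2 signal per probe set, used here as deposited. The submitters' processing notes name GCOS. The version, background correction, summarization and normalization stand as not given in the sources used here.

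Of 24351 probe sets, 17709 carried 1 gene symbol and 6642 carried none. The probe set with the highest mean represented each gene, which left out 22 and gave 17687 genes. Groups followed the titles. An array titled shRNA_KDM4C whose source name reads siKDM4C was taken as siKDM4C replicate 2. Testing used limma (version 3.58.1, under R 4.3.3), with lmFit and eBayes on 8 group means in a single model that left 12 residual degrees of freedom. The Benjamini-Hochberg adjustment ran over all genes, at a threshold of 0.05. Fold changes are treated minus control on the log2 scale. Simulated data with known changes served to check the model.

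The members and lists were chosen with earlier results of these data known. Any member could be named, with values per array for the largest called changes of each role. Outside the list, KDM4B, KDM4C, MYOD1, MYOG and up to 3 called genes per list and comparison could be named. The alternatives were other scalings, a filter on the lowest 40% of probe sets, a trended and robust variance, a fit restricted to the compared arrays, a replicate block, groups by sample name, the lowest-mean probe set, and leaving out each array. The fit of arrays with agreeing labels, the difference between drug and hairpin and the floor for lower bounds (1.5 log2 above the background median) were added after the data were seen.

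Promoter sequences and symbols came from RefSeq tables (GRCh38.p14). E-boxes, the CArG box and the MEF2 motif were searched on both strands.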

Additional observations from a re-analysis of the deposited data

Results flagged for a closer look

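For 11 members the response to QC6352 differed between Rh41 and Rh30 in the direct test of that difference (limma, adjusted p under 0.05), with 3 arrays in each of 4 groups. The share of members called was close to the share of all genes called in the same test, so the count does not set the members apart. The response was higher in Rh41 for KLHL41 by 1.45 log2, MYL4 by 1.33, ACTC1 by 1.30, TPM1 by 1.10, TNNI1 by 0.91, RYR1 by 0.73, TPM2 by 0.55 and DES by 0.48. It was lower in Rh41 for MYL1 (-1.40), XIRP1 (-1.13) and TTN (-0.65). These values rest on Rh30 arrays whose labels conflict. ACTC1 and MYL4 were called in opposite directions in the lines. DES passed in neither line alone, at -0.24 log2 in Rh30 and 0.24 in Rh41. No group of 4 or more arrays existed, so single arrays were not examined as outliers.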

How the results depend on the processing

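Over the members called in each of the 7 comparisons and the alternatives run for them, 909 values kept their direction and their side of the threshold, 76 kept the direction and lost the call, and 22 reversed, all 22 with groups by sample name. In QC6352 against DMSO in Rh30, grouping by sample name called 0 members and reversed MYL1 (-0.19), XIRP1 (-0.25), TPM1 (-0.22), TRIM55 (-0.19), MYL11 (0.34), RYR1 (0.39), TPM2 (0.0696), NEB (0.0614), ACTC1 (0.0536) and ACTA1 (0.0255). It reversed MYL1 (0.89), XIRP1 (0.68), TTN (0.0253), TPM2 (-0.46), RYR1 (-0.34) and KLHL41 (-0.19) in the difference between lines, where 3 members were called, and MYOM3 (0.66) between the lines in DMSO. In the added difference between drug and hairpin it reversed ACTC1 (0.17), MYL1 (-0.15), KLHL41 (0.16), TRIM55 (-0.11) and RYR1 (0.49). It called 4 members in Rh41, where the compared groups are the same arrays and the shared spread alone differs. The compared arrays alone, and the arrays with agreeing labels, called 14 in Rh41.

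The siRNA comparison called 2 members with the lowest probe sets left out or with a trended variance, and 0 with its 4 arrays alone, with the replicate block or by sample name (8, 10 and 8 members at an unadjusted p under 0.05). Leaving out 1 array gave 0 to 5 members there, 3 to 4 with the hairpin, 14 to 16 and 7 to 9 with QC6352 in Rh30 and Rh41, 9 to 11 for their difference and 25 to 29 in DMSO.

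Whether the replicate numbers pair the arrays cannot be told from the correlations here, since arrays of different numbers were not compared. Deviations of same-numbered arrays correlated at 0.09 with the hairpin, -0.21 with the siRNA, 0.06 to 0.26 in Rh30 and -0.19 to -0.06 in Rh41. With the number as a block, 4 members were called with the hairpin, 15 and 9 with QC6352 in Rh30 and Rh41, 10 for their difference and 26 in DMSO. The block ended the calls of MYL4 and MYBPH in Rh41, TTN in the siRNA comparison and in the difference between lines, and KLHL40 in DMSO. It added CASQ2 (0.38) and XIRP1 (0.43) in Rh41.

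Signal limits what could be seen. Of the 48 members, 23 lay in the lowest 40% of genes by mean. Leaving these out gave 18 calls in DMSO, since 9 called members were then not tested. In Rh41, MYL4 was also lost with quantile normalization (adjusted p = 0.0513). The cause of the other changes was not tested.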

Other observations

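Counts of called genes are given beside the share of all genes called, 36.3% with QC6352 in Rh30, 19.7% in Rh41 and 11.6% with the KDM4B hairpin. Of 20 measured smooth muscle and non-muscle contractile genes, 4 rose and 5 fell with QC6352 in Rh30, 3 rose and none fell in Rh41, and 5 rose and none fell with the hairpin. The Rh41 count is below the share of all genes. CNN1, calponin of smooth muscle, rose by 1.14 log2 in Rh30, by 1.06 in Rh41 and by 1.54 with the hairpin. ACTB, cytoplasmic beta-actin, fell by 0.58 in Rh30.

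Among 13 measured muscle transcription factors, 1 rose and 6 fell with QC6352 in Rh30, including MYOG (-2.63), MEF2C (-1.41) and MYOD1 (-1.37), while 2 rose and none fell in Rh41. These are 53.8% of the list in Rh30, against 36.3% of all genes, and 15.4% in Rh41, against 19.7%. With the KDM4B hairpin MYF5 rose by 1.15 log2 and MYOD1 fell by 0.71. In DMSO, Rh41 was called higher than Rh30 in CACNA2D1, a calcium channel subunit (estimate 4.70 log2), and lower in MYPN (-2.40). The DMSO mean of CACNA2D1 in Rh30 was 3.32 log2, under the floor for lower bounds, 5.46 in that group. The DMSO mean of MYPN in Rh41 was 5.30 log2, under the floor of 5.45 there. The sizes of these 2 differences are therefore not well measured. The values in Rh30 with QC6352 and in DMSO rest on arrays whose labels conflict.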
